A study of Mus musculus with 4 samples.

Results

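The genes described here encode protein kinases that phosphorylate tau, and the subunits of a phosphatase that removes those phosphates. They are Gsk3a, Gsk3b, Cdk5, Cdk5r1, Mark2, Mark3, Mark4, Ppp2ca and Ppp2r2a, and they were found by their symbols in a table of 25050 genes. All 9 were present once, and all 9 passed the minimum of 10 normalised reads that left 15540 genes for testing. The cells were HT-22, an immortalised mouse hippocampal line, at passages 21 to 24, and their mRNA levels were read by RNA sequencing. There were 2 libraries labelled wild type and 2 labelled Nsmce1 overexpression (titled Nsmce1-pb). The series text says both that the Nsmce1 construct is inducible with uninduced cells as controls and that the controls are wild type cells, and the labels do not settle which. They name no promoter, inducer, dose, time or clone, and do not say whether replicates were grown separately. The study asked how the transcriptome answers to Nsmce1, with tau (Mapt) and amyloid genes as its starting point.

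Tau binds and stabilises microtubules, and phosphorylation in and around its repeats loosens that binding. GSK3 (Gsk3a and Gsk3b) and CDK5 phosphorylate tau at serines and threonines followed by proline. CDK5 is a cyclin-dependent kinase that is activated in neurons by the protein that Cdk5r1 encodes. The MARK kinases act on serines inside the microtubule-binding repeats, and protein phosphatase PP2A, with the catalytic subunit from Ppp2ca and the B55 regulatory subunit from Ppp2r2a, is the main phosphatase of tau in brain. These proteins are controlled largely by phosphorylation and by partner proteins, which an mRNA measurement does not see.

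The 250 bases upstream of the annotated start of Gsk3b, Gsk3a and Ppp2ca are shown because Gsk3b and Ppp2ca lay at opposite ends of the comparison below and Gsk3a is the close relative of Gsk3b. The sequences are RefSeq promoter windows (GRCm38.p6), which were at hand for 5 of the 9 genes, and are written 5′ to 3′. Capitals mark the CCAAT box (CCAAT), the GC box (GGGCGG), the cyclic AMP response element (TGACGTCA) and the TATA box (TATAAA), searched on both strands.
Gsk3b, chr16:38088751-38089000, plus strand: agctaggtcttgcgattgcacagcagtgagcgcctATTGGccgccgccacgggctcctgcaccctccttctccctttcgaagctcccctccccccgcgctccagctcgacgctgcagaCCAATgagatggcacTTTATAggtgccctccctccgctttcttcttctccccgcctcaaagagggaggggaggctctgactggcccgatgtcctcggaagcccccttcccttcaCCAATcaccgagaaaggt
Gsk3a, chr7:25237852-25238101, minus strand: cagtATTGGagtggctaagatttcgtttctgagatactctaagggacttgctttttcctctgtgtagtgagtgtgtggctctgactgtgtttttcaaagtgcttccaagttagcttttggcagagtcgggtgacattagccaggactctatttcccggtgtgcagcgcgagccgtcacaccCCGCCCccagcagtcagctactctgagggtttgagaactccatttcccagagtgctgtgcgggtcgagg
Ppp2ca, chr11:52098574-52098823, plus strand: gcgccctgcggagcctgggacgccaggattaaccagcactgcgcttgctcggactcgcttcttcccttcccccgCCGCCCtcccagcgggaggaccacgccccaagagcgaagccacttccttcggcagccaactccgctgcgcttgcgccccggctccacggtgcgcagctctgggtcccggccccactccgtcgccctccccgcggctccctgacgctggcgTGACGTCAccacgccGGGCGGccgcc
The Gsk3b window held 3 CCAAT boxes, a number reached by 2.79% of the 32851 mouse windows of this length, and 1 TATA box, found in 12.4% of them. Gsk3a had 1 CCAAT box and 1 GC box. Ppp2ca had no CCAAT box, 2 GC boxes (16.7% of windows hold at least 2) and 1 cyclic AMP response element (1.55% of windows). No marked motif overlapped another. These matches describe the letters only. The build in the submitters' processing notes is mm9, so no coordinates are given for the expression values.

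The whole reads behind the deposited values numbered 25787452 and 31010351 for wild type replicates 1 and 2, against 32516117 and 44602989 for overexpression. Nsmce1 itself, at 1108 and 1206 normalised reads in the wild type pair, reached 17851 and 16525 in the overexpressing pair, which fits the labels. The labels call the cells hippocampal neurons, yet of 14 neuron markers 9 were in the table and 5 were abundant enough to test, with summed levels of 1549 to 1962 normalised reads a library, nearly all of it Syn1 and Tubb3. Dcx and Nefm were at 0 in 3 of 4 libraries each, and Slc17a7 and Syt1 had at most 8.80 normalised reads. The 10 fibroblast and mesenchymal markers summed to 505516 to 597462 normalised reads, and the ranges of the groups overlapped. The sum hides members that were separated in opposite directions. Postn was at 1079 and 710 for wild type against 624 and 407 for overexpression, and Col3a1 was also lower. Acta2, at 207 and 143 against 220 and 226, and S100a4 were higher, and the groups overlapped for the rest of this list. The astrocyte markers did not move together. Slc1a3 was at 3302 and 2956 normalised reads for wild type against 4537 and 4245 for overexpression, while Aldh1l1 was at 57.8 and 65.3 against 14 and 12.4, and Gfap and Slc1a2 were at or near 0. Their summed level, 3021 to 3368 against 4264 to 4560, is nearly all Slc1a3. The summed level of 6 microglia markers, 1970 to 2338 against 1640 to 1787, is likewise mostly Tmem119. Cd68 lay the other way, at 88.0 and 70.6 against 132 and 100.7, Aif1 overlapped between the groups, and Cx3cr1, Ptprc and Csf1r were at or near 0. Oligodendrocyte markers, mostly Cspg4, summed to 5204 to 5959 and endothelial markers to 30.2 to 51.6 over the 4 libraries. No gene of these lists passed the test, and their part in the results below was not tested. In bulk RNA, fewer cells of a type and less RNA per cell cannot be told apart.

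None of the 9 genes passed the test for a difference between overexpressing and wild type cells (limma, Benjamini-Hochberg adjusted p under 0.05 over all 15540 genes). The count was also 0 with voom. Over all tested genes 0.193% passed, 0.103% higher and 0.0901% lower. Gsk3b came nearest, 1.34-fold higher with Nsmce1 overexpression. The other 8 lay between 1.12-fold lower (Ppp2ca) and 1.12-fold higher (Cdk5r1). In all, 6 of the 9 log2 fold changes were above 0 and 3 below, with a median of 0.07, where 51.3% of all tested genes were above 0 with a median of 0.0054. The libraries of the groups did not overlap for 4 genes that were higher (Gsk3b, Mark2, Mark3 and Ppp2r2a) and 2 that were lower (Cdk5 and Ppp2ca), where 20.8% and 18.3% of all tested genes were separated in these directions, 39.1% in either. Before adjustment, 1 of the 9 (Gsk3b) had a limma p under 0.05, as did 7.92% of all tested genes. With 2 libraries a group, the exact permutation test of a single gene cannot go below p = 0.333, so the calls rest on the variance that limma shares across genes, and they measure only the spread between these libraries.

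**Figure D1:**
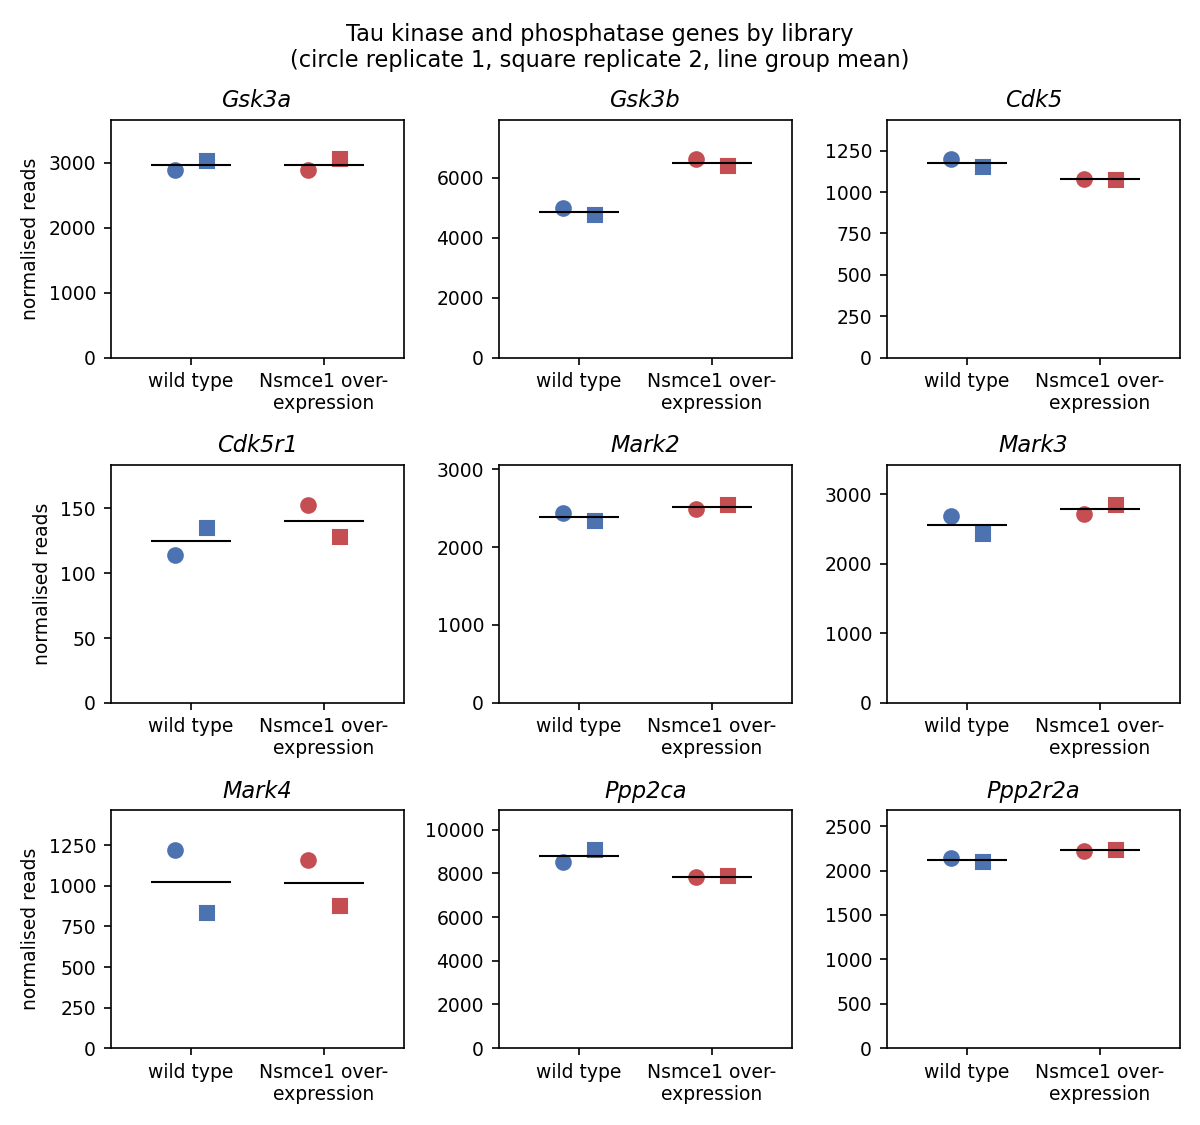
Normalised reads (vertical axis, from 0) of the 9 genes in each library, with wild type in blue, Nsmce1 overexpression in red, circles for replicate 1, squares for replicate 2 and a line for each group's mean. Gsk3b is the gene whose groups lie farthest apart, 4742 to 4995 against 6392 to 6619, while in Mark4 the replicates of a group lie farther apart than the group means.

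Gsk3b (ENSMUSG00000022812, chromosome 16) encodes GSK3 beta, a kinase of tau, of glycogen synthase and of beta-catenin. It gave 4995 and 4742 normalised reads per wild type library, against 6619 and 6392 under overexpression. Both overexpressing libraries were above both wild type libraries, and the gap was several times the distance between replicates. The log2 fold change was 0.42 (SE 0.0744, 95% limits 0.24 to 0.60), or 1.34-fold with limits of 1.18 to 1.52, and the limma adjusted p was 0.168. Among the 6650 genes with a mean of at least 1000 normalised reads, 88 (1.32%) were as high as Gsk3b or higher. With the median of each chromosome removed from each library, the log2 fold change of Gsk3b was 0.26 (limma adjusted p = 0.532).

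Gsk3a (ENSMUSG00000057177, chromosome 7), which encodes the alpha form of the kinase, gave 2890 and 3030 normalised reads per wild type library, against 2884 and 3053 under overexpression. The groups overlapped almost entirely. Its log2 fold change was 0.0040 (SE 0.0809), and the 95% limits of -0.19 to 0.20 span 1.14-fold lower to 1.15-fold higher. Gsk3a shares exon sequence with the antisense gene 9130221H12Rik, which had 255 to 290 normalised reads, and without knowledge of strand reads of the overlap cannot be assigned. The ratio of Gsk3b to Gsk3a reads within a library, in which a scaling of the library cancels, was 1.73 and 1.57 per wild type library, against 2.30 and 2.09 under overexpression. The ratio was 1.33-fold higher with overexpression, without overlap between the groups (exact two-sided permutation p = 0.333, the smallest possible, adjusted p = 0.556 over 5 ratios). Per kilobase of annotated exon, Gsk3b made up 33.8% and 31.6% of the GSK3 reads per wild type library, against 40.4% and 38.2% under overexpression.

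Cdk5 (ENSMUSG00000028969, chromosome 5) gave 1198 and 1151 normalised reads per wild type library, against 1078 and 1075 under overexpression. The overexpressing libraries were both lower, by less than limma's limits can separate from 0 (log2 fold change -0.13, SE 0.0911, limits -0.35 to 0.096, limma adjusted p = 0.769). Cdk5r1 (ENSMUSG00000048895, chromosome 11), the gene of its neuronal activator, was the least abundant of the 9 per kilobase of exon, with 114 and 135 normalised reads per wild type library, against 153 and 128 under overexpression. Its groups overlapped, and the 91 to 175 whole reads a library leave wide counting intervals, such as 92.1 to 140 normalised reads in wild type replicate 1 (95% exact Poisson limits, counting error only). The log2 fold change was 0.17 (SE 0.202), with limits of -0.32 to 0.66, so that a 1.58-fold higher level is not separated from none. Single libraries decided its size: it was 0.040 without overexpression replicate 1, 0.052 without wild type replicate 1, 0.29 without wild type replicate 2 and 0.30 without overexpression replicate 2. The ratio of Cdk5r1 to Cdk5 was 0.0955 and 0.117 per wild type library, against 0.142 and 0.119 under overexpression. Its groups did not overlap by the narrow step from 0.117 to 0.119, and the wild type replicates lay nearly as far apart as the group means (exact permutation p = 0.333).

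Mark2 (ENSMUSG00000024969, chromosome 19), a kinase that also sets cell polarity, gave 2443 and 2331 normalised reads per wild type library, against 2493 and 2545 under overexpression. Its log2 fold change was 0.078 (SE 0.0799, limits -0.12 to 0.27). Mark3 (ENSMUSG00000007411, chromosome 12), a further member of the kinase family, gave 2690 and 2438 normalised reads per wild type library, against 2724 and 2855 under overexpression, with a log2 fold change of 0.12 (SE 0.0883, limits -0.092 to 0.34). For both genes the overexpressing libraries were the higher ones, but the wild type replicate nearest to them was closer than its own partner. Without wild type replicate 2 the log2 fold changes were 0.044 for Mark2 and 0.052 for Mark3, and without wild type replicate 1 that of Mark3 was 0.19.

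Mark4 (ENSMUSG00000030397, chromosome 7), the family member best known from neurons and centrosomes, varied more within groups than between them. It gave 1222 and 832 normalised reads per wild type library, against 1162 and 875 under overexpression. The library numbered 1 was the higher of its group in both cases, by 0.55 and 0.41 on the log2 scale. Counting error does not span these distances: the 95% exact Poisson limits were 1147 to 1302 and 775 to 892 in wild type replicates 1 and 2, and 1096 to 1231 and 826 to 925 for overexpression. The log2 fold change was -0.00053 with an SE of 0.218, the largest SE of the 9, and limits of -0.53 to 0.53. With the replicate number added to the fit as a block, the log2 fold change was the same and its SE was 0.0959. Leaving out a single library moved it from -0.28 (without wild type replicate 2) to 0.28 (without wild type replicate 1). The ratio of Mark3 to Mark2 was 1.10, 1.05, 1.09 and 1.12 in wild type 1 and 2 and overexpression 1 and 2, and that of Mark4 to Mark2 was 0.50, 0.357, 0.466 and 0.344. Both ratios overlapped between the groups (exact permutation p = 0.667 each).

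Ppp2ca (ENSMUSG00000020349, chromosome 11), the catalytic subunit of PP2A, was the most abundant of the 9 per kilobase of exon, with 8518 and 9072 normalised reads per wild type library, against 7811 and 7854 under overexpression. The overexpressing libraries were both below the wild type ones. The log2 fold change of -0.17 (SE 0.0728, limits -0.34 to 0.011) corresponds to 1.12-fold lower and did not pass the test (limma adjusted p = 0.652). Among the genes with at least 1000 normalised reads, 9.38% were as low or lower. Ppp2r2a (ENSMUSG00000022052, chromosome 14), which encodes the B55 alpha subunit that directs PP2A to tau, gave 2144 and 2093 normalised reads per wild type library, against 2219 and 2233 under overexpression. Its log2 fold change was 0.072 (SE 0.0792, limits -0.12 to 0.26). The ratio of Ppp2r2a to Ppp2ca was 0.252 and 0.231 in wild type and 0.284 in both overexpressing libraries. It was 1.18-fold higher with overexpression and did not overlap between groups (exact permutation p = 0.333, adjusted p = 0.556).

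**Figure D2:**
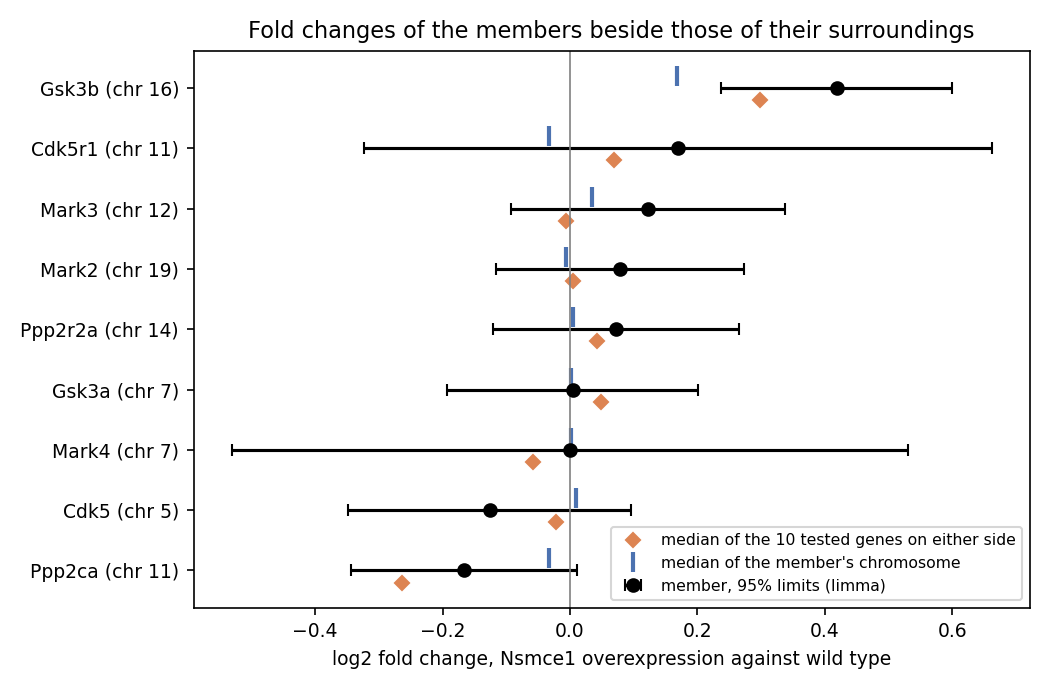
Log2 fold change of each of the 9 genes (horizontal axis, black points with 95% limits from limma), beside the median of the 10 tested genes on either side of it (orange) and of the other tested genes of its chromosome (blue bars). The limits of Gsk3b alone leave out 0, and its surroundings are above 0 as well, while the neighbours of Ppp2ca lie below it.

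The genes around Gsk3b and Ppp2ca shared the direction of the member. The 20 tested genes nearest to Gsk3b were taken as 10 on either side in the GENCODE M21 order. Of these, 18 were above 0, with a median log2 fold change of 0.30. An unadjusted limma p under 0.05 was found for 12 of the 20, including Gap43, which was lower with overexpression. The same held for 122 of the other 447 tested genes of chromosome 16 and for 7.92% of all tested genes. Lrrc58 and Fstl1, next to Gsk3b, stood at 0.46 and 0.45, and the Golgi gene Golgb1 at 0.38. On the other side Cox17, a copper chaperone of cytochrome oxidase, stood at 0.10. Gsk3b was above 15 of these 20 and 0.12 above their median. The 2 below 0 were Eaf2 at -0.10 and the neuronal growth gene Gap43 at -3.57, which is the farthest of the 20 and had means of 34.1 normalised reads in wild type and 3.50 with overexpression. None of the 20 passed over all tested genes (limma). The other 447 tested genes of chromosome 16 had a median of 0.17, with 338 above 0, and among the 208 chromosome 16 genes with at least 1000 normalised reads Gsk3b ranked 16 from the top.

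For Ppp2ca, 18 of the 20 nearest tested genes were below 0, with a median of -0.26, although the median of chromosome 11 was -0.032. Skp1a, a subunit of the SCF ubiquitin ligase, stood at -0.29, Rmnd5b at -0.48, Jade2 at -0.37 and Cdkn2aipnl at -0.34. Ppp2ca, at -0.17, was above 14 of the 20 in this neighbourhood. An unadjusted limma p under 0.05 was found for 7 of the neighbours, and for 106 of the other 1219 tested genes of chromosome 11. None of these neighbours passed over all tested genes. The neighbours of the other 7 genes had medians between -0.058 (Mark4) and 0.069 (Cdk5r1). What sets the level of these stretches was not tested.

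**Figure D3:**
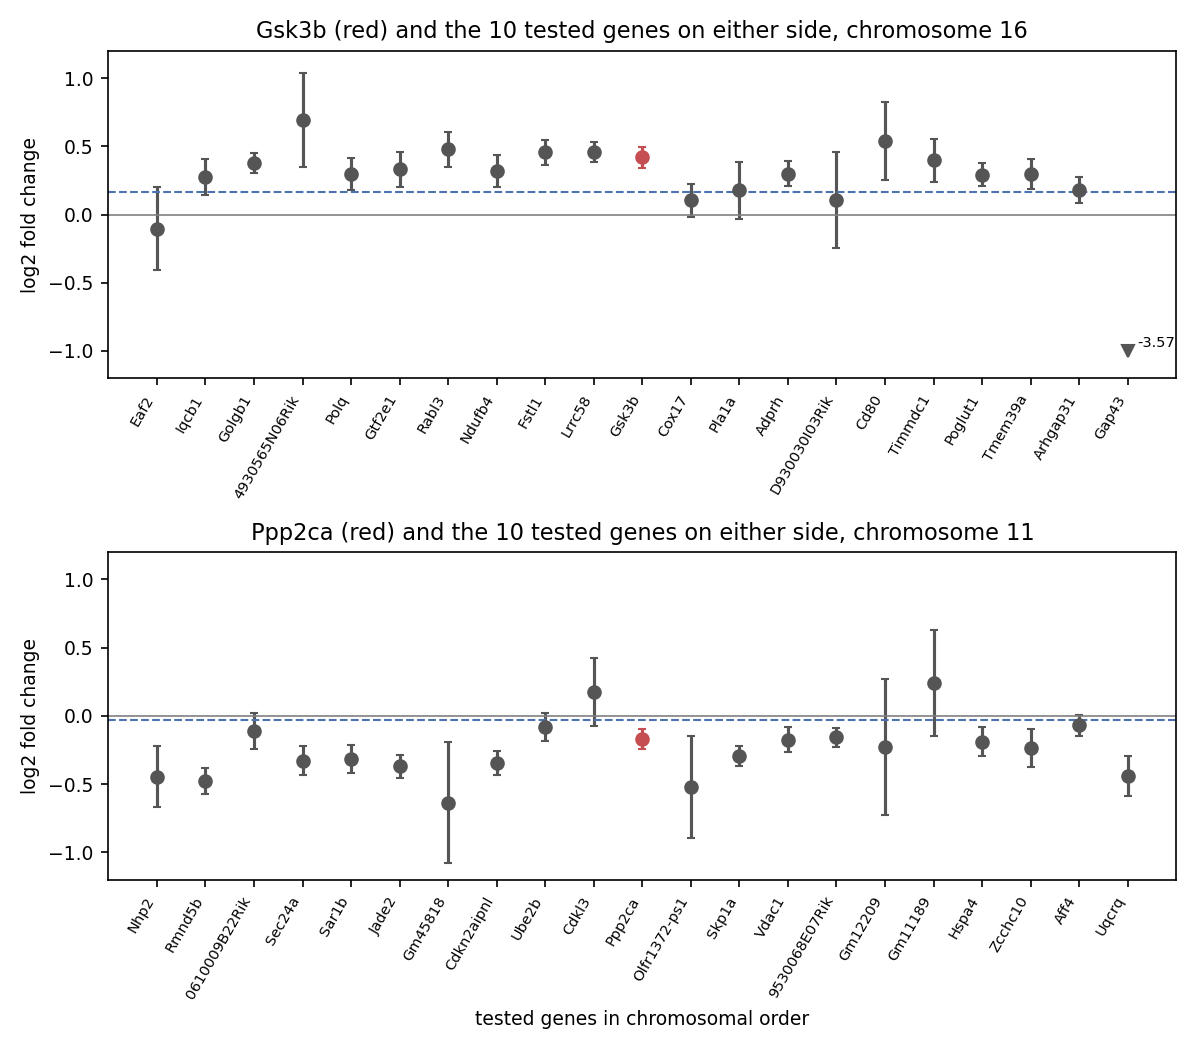
Log2 fold change with standard error (vertical axis) of Gsk3b and Ppp2ca (red) and of the 10 tested genes on either side in chromosomal order (horizontal axis, grey), with the chromosome's median as a dashed line; a triangle marks a value beyond the axis. Around Gsk3b 18 of 20 genes lie above 0, and around Ppp2ca 18 of 20 lie below it.

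Levels of different genes were compared per kilobase of annotated exon, since the deposited values are not divided by length. In wild type cells Ppp2ca was highest, at 1174 ± 52.3 normalised reads per kilobase (SD, n = 2), followed by Gsk3a at 1021 ± 34.2. Cdk5 (542 ± 15.4) and Gsk3b (495 ± 18.2) came next, then Ppp2r2a (394 ± 6.76), Mark2 (301 ± 10.03), Mark3 (264 ± 18.4) and Mark4 (220 ± 59.1). Cdk5r1 was far below, at 29.9 ± 3.46. Over all 4 libraries the ranges of Ppp2ca and Gsk3a, of Gsk3b and Cdk5, of Mark2 and Mark3, and of Mark3 and Mark4 overlapped. Within each library, however, Mark2 lay above Mark3 and Mark3 above Mark4. Ppp2ca lay above Gsk3a except in overexpression replicate 2 (1049 against 1053), so that pair is not ordered. Gsk3b lay below Cdk5 in both wild type libraries and above it in both overexpressing ones. Annotated exon length includes ends that these cells may not use, which can shift the order.

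**Figure D4:**
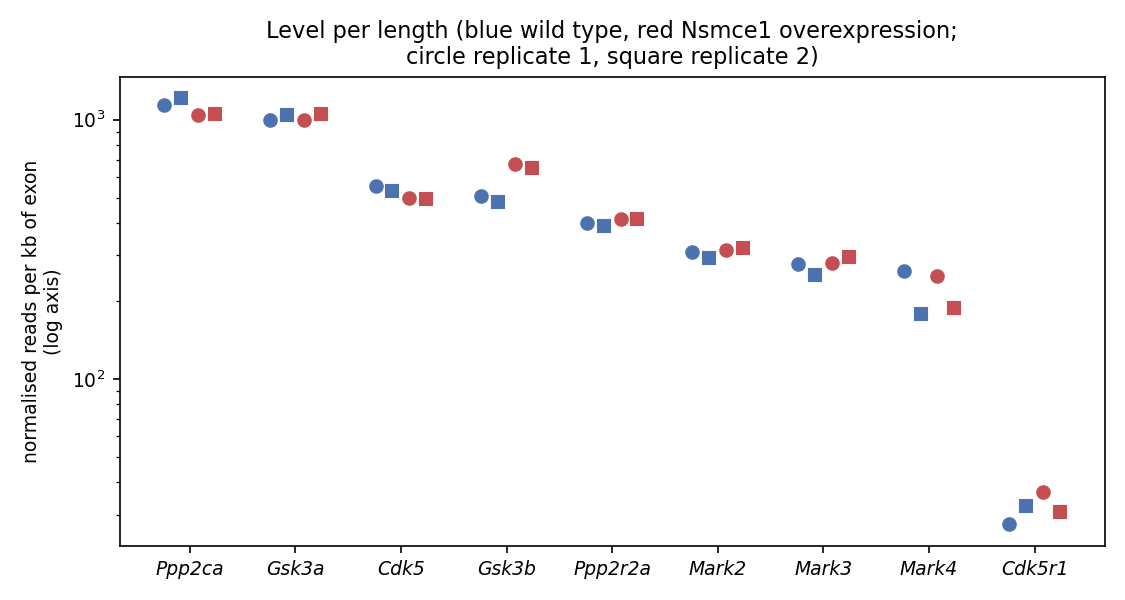
Normalised reads per kilobase of annotated exon (vertical log axis) for the 9 genes, ordered by their wild type mean, with wild type libraries in blue and overexpressing ones in red. Cdk5r1 lies far below the other 8, and Gsk3b is the gene that changes its place beside Cdk5 between the groups.

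Within families, per length, Mark2 made up 29.2% to 31.8% of MARK reads, Mark3 26.3% to 29.2%, Mark4 18.6% to 24.8% and the remaining member Mark1 19.2% to 23.7% over the 4 libraries. Ppp2ca made up 51.3% to 54.7% of the reads of the PP2A catalytic genes, the rest being its near copy Ppp2cb, and reads can be split between such similar genes. Ppp2r2a and Ppp2r2d divided the B55 reads almost evenly, with 52.8% to 55.8% for Ppp2r2a, while the neuronal forms Ppp2r2b and Ppp2r2c had at most 8.43 normalised reads in any library.

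Beyond the 9 genes, 117 further genes of the tau kinase and phosphatase pathways were tested and 0 passed over all tested genes, with limma and with voom. Of these, 76 were above 0 and 41 below, with a median log2 fold change of 0.031, and 7 had an unadjusted limma p under 0.05. Over all tested genes 51.3% were above 0 and 7.92% had such a p, so 7 of 117 is no more than the background. Of 29 other tau kinases, 23 were above 0 (median 0.039). The Src-family kinase Fyn, which phosphorylates tau at tyrosine, had 2040 and 1909 against 2294 and 2310 normalised reads (log2 fold change 0.22, SE 0.0834). Fyn is on chromosome 10 and stood at 0.079 with chromosome medians removed.

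Another list held Ccny, Ccnyl1, Cdk5rap1, Cdk5rap2, Cdk5rap3 and Cables2, with Capn1, Capn2, Capns1 and Cast of the calpain system. That system includes proteases that cleave the activator of CDK5. The activator gene Cdk5r1 was not in this list, so the list does not describe the level of that activator. The list showed the narrowest spread, with 5 genes above and 5 below 0 and all between -0.051 (Ccny) and 0.10 (Capn1). Leaving out overexpression replicate 1 brought these to -0.0054 and 0.055, and leaving out the other overexpressing library brought Ccny to -0.097. Among 20 regulators of GSK3, which include the beta-catenin destruction complex and the AKT pathway that inhibits the kinase, 13 were above 0 (median 0.036). The catalytic subunits of PI3 kinase Pik3cb and Pik3ca had log2 fold changes of 0.17 (SE 0.0926) and 0.15 (SE 0.0895). Pik3cb was at 0.10 without overexpression replicate 2, and Pik3ca at 0.066 without wild type replicate 2 and 0.23 without wild type replicate 1. Of 17 genes for kinases upstream of MARK and for YWHA adaptor proteins, 12 were above 0 (median 0.032). Stk11, encoding LKB1, the kinase that activates MARKs, gave 2609 and 2160 normalised reads per wild type library, against 2904 and 2889 under overexpression (log2 fold change 0.29, SE 0.109, limma adjusted p = 0.594). Stk11 also lies on chromosome 10 and was at 0.14 with chromosome medians removed. Taok1, which also activates MARKs, stood at 0.12 (SE 0.0937). Without wild type replicate 2, the lower wild type library for both genes, Stk11 was at 0.15 and Taok1 at 0.016. Taok1 thus rested on that library, and the change of Stk11 was also smaller without it. For Stk11 both overexpressing libraries were above both wild type ones, as for 20.8% of all tested genes. Without wild type replicate 1 Taok1 was at 0.22, and without overexpression replicate 2 it was at 0.075.

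The other PP2A subunits divided into 8 above and 7 below 0 (median 0.0037). Strn3, a regulatory subunit of PP2A in the STRIPAK complex, gave 3110 and 3132 normalised reads per wild type library, against 3947 and 3793 under overexpression (log2 fold change 0.31, SE 0.0752, limma adjusted p = 0.350). Ppp2r3c, also a regulatory subunit, had 689 and 721 against 867 and 864 (log2 fold change 0.30, SE 0.0999). Strn3 and Ppp2r3c both lie on chromosome 12, and whether their changes are separate was not tested. The scaffold gene Ppp2r1a stood at -0.11. Of 16 genes that modify or inhibit PP2A, 10 were above 0 (median 0.087). The PP2A inhibitor Cip2a, listed as C330027C09Rik, had 5523 and 5806 against 6735 and 7113 normalised reads (log2 fold change 0.29, SE 0.0757, limma adjusted p = 0.395). It lies on chromosome 16, and with chromosome medians removed C330027C09Rik was at 0.13. Anp32a, encoding another inhibitor, stood at 0.17 (SE 0.0779).

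Of 11 other tau phosphatase genes, 5 were above and 6 below 0 (median -0.088). Ppp3cb, a catalytic subunit of the calcium-dependent phosphatase calcineurin, gave 3838 and 3766 normalised reads per wild type library, against 2993 and 3072 under overexpression. Its log2 fold change of -0.33 (SE 0.0748, limma adjusted p = 0.316) was the lowest of that list, and the groups did not overlap. The PP1 catalytic gene Ppp1cc had 7087 and 5287 against 5055 and 5088 normalised reads, and only wild type replicate 1 stood apart. Without it the log2 fold change of Ppp1cc went from -0.27 to -0.060, and without wild type replicate 2 to -0.48. Mapt, the gene of the shared substrate, was near the counting limit, with 21.4 and 15.8 normalised reads per wild type library, against 14 and 2.92 under overexpression (log2 fold change -1.34, limits -3.15 to 0.48). Leaving out overexpression replicate 2 gave -0.37, and leaving out replicate 1 of that group gave -2.31.

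**Figure D5:**
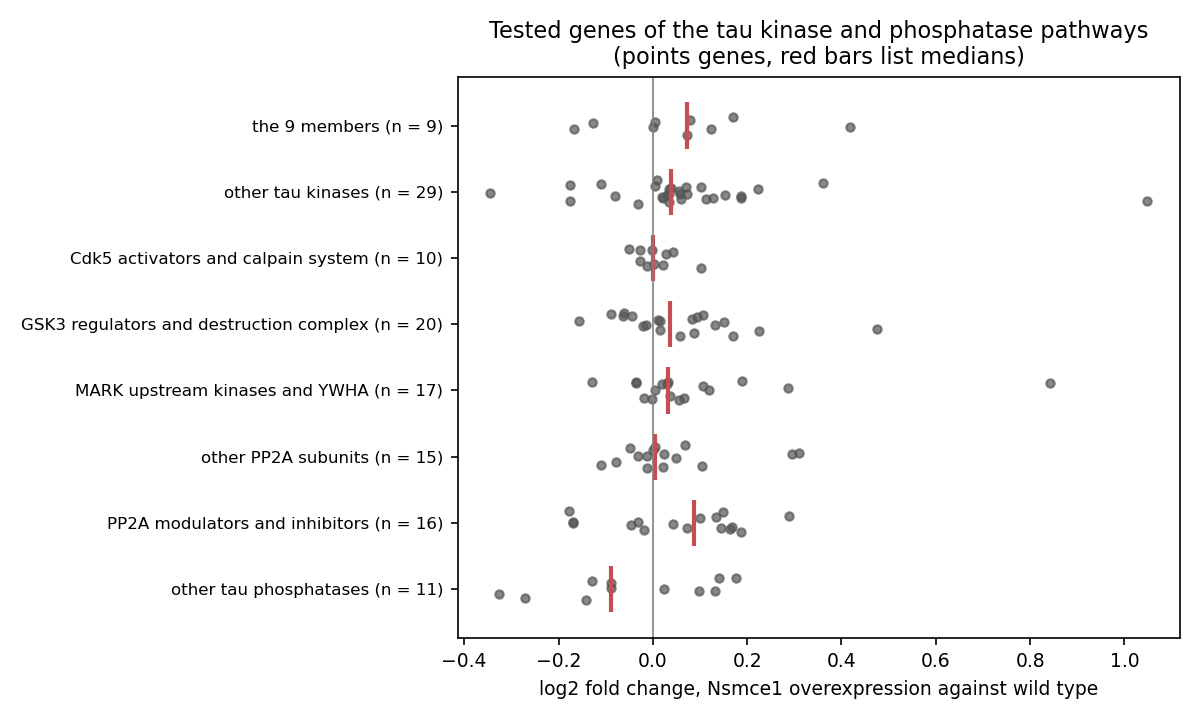
Log2 fold change (horizontal axis) of every tested gene in the group of 9 and in 7 further lists of the tau kinase and phosphatase pathways (grey points), with the list median as a red bar. The medians lie between -0.088 and 0.087, and Gsk3b is the point at 0.42 in the top row.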

How the data were processed

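HISAT, Cufflinks and mm9 stand in the submitters' processing notes, and neither the counting tool nor its use of strand is given in the sources used here. The authors deposited 1 log2 value per gene and library. After the log2 was undone, less 1, 100% of values in each library were whole multiples of a step within 0.01 read, so they are read counts divided by a factor per library. The planned branch for normalised values was used: limma 3.58.1 with a mean-variance trend on the deposited log2 values, group as the only term, 4 libraries, genes with a mean of at least 10 normalised reads, two-sided p-values adjusted by Benjamini-Hochberg over 15540 genes, threshold 0.05. Fold changes therefore carry a pseudocount of 1. Limits are 95%. GENCODE M21 (GRCm38) gave exon lengths, chromosomes and gene order, matched on Ensembl identifier for 24952 of 25050 genes. The members and lists were chosen with earlier results of these data known. Named genes were the 9 members, Nsmce1, Mapt and, from each list, the 2 genes with the smallest p among those with a mean of at least 100 normalised reads, plus any list gene past the threshold. A gene that this rule names is not reported here. Genes named as neighbours, subunit relatives or markers were chosen after their values were seen. The steps were tested on simulated data. The planted log2 changes were 1 and 2, in genes with a mean of at least 100 normalised reads. Every change among the 9 members was smaller, so the simulation does not show whether changes of their size are found. The main fit did not pair libraries by replicate number. Deviations of same-numbered libraries correlated with r = 0.0068 across genes, which cannot show whether single genes vary with replicate number. Alternatives were other pseudocounts, filters, scalings and variance models, a replicate block, voom and each library left out.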

Additional observations from a re-analysis of the deposited data

How the results depend on the processing

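Under all 16 alternatives run, 0 of the 9 genes and 0 of the 117 further pathway genes passed. Gsk3b kept its sign in each, from 0.26 with chromosome medians removed to 0.46 without wild type replicate 1, with limma adjusted p between 0.0908 (replicate block) and 0.627 (without wild type replicate 2). Of the other 8 genes, all but Gsk3a and Mark4 kept their sign throughout. Gsk3a went to -0.014 with quantile normalization, -0.030 without wild type replicate 1 and -0.037 without overexpression replicate 2. Mark4 went to 0.0035 with a common median, 0.011 with quantile normalization, 0.28 without wild type replicate 1 and 0.20 without overexpression replicate 2, its lowest being -0.28 without wild type replicate 2. The ratio of Mark3 to Mark2 went from a log2 difference of 0.045 to -0.0013 with chromosome medians removed. In that setting Gsk3b to Gsk3a went from 0.41 to 0.26 and Ppp2r2a to Ppp2ca from 0.24 to 0.19. Cdk5r1 to Cdk5 went from 0.30 to 0.34. The ratio of Mark4 to Mark2 ranged from -0.32 to 0.16 with a library left out.

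The count of genes passing over all tested genes, 30, was 16 without a filter, 18 with quantile normalization, 9 without a trend, 72 with robust variances and 60 with the replicate block, and 2 to 75 with a library left out. The block changed no call among the 9 or the pathway genes. Neighbour medians with a library left out ranged from 0.25 to 0.34 for Gsk3b, -0.30 to -0.22 for Ppp2ca, -0.0064 to 0.081 for Gsk3a, -0.071 to -0.0011 for Cdk5, 0.0071 to 0.085 for Cdk5r1, 0.0030 to 0.057 for Mark2, -0.050 to 0.019 for Mark3, -0.057 to -0.014 for Mark4 and 0.0030 to 0.093 for Ppp2r2a. With a minimum mean of 50 normalised reads they were -0.00044 for Gsk3a and 0.0064 for Mark4. For the reversals the cause was not tested. In fits that leave out a library, the lone library is assumed to vary like the other group. The planned count test of edgeR on the recovered reads was not run. With voom on the recovered reads, 20 genes passed over all tested genes.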

Other observations

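Among the pathway genes outside the rule for named genes, Ttbk2, a kinase of tau and of cilium assembly on chromosome 2, gave 2046 and 555 normalised reads per wild type library, against 2296 and 2116 under overexpression. It was chosen after its values were seen. The log2 fold change of 1.05 (SE 0.546, limma adjusted p = 0.701) was the largest of the 117 and rested on wild type replicate 2, which alone was low. The neuronal kinase genes Camk2a and Camk2b were weakly expressed: Camk2a had 108, 30.5, 40 and 51.1 normalised reads and Camk2b 103, 59.0, 133 and 75.9 in the same order of libraries, with overlapping groups. Ttbk1, the neuronal relative of Ttbk2, had 0 reads in 3 libraries and 3.65 normalised reads in overexpression replicate 2.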
